A study of Mus musculus with 46 samples.

Results

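The genes described here encode proteins of the synaptic vesicle and of the machinery that docks, primes, fuses and retrieves it at nerve terminals. They were chosen by name, with earlier results of these data known. In all 40 genes were listed, and each array probeset whose platform annotation gave exactly 1 of those symbols was taken. All 40 genes were measured, by 102 of the 45037 probesets on the array, which in all name 18193 genes. The probeset of a gene with the highest mean value over all arrays was used as its representative. In 10 genes it was the only probeset, and the other 30 genes had 62 further probesets.

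RNA was taken from the bed nucleus of the stria terminalis, abbreviated BNST and part of the extended amygdala, of adult male C57BL/6J mice, with 1 mouse per array. CIE (chronic intermittent ethanol) mice received 4 cycles of ethanol vapor at 10 to 13 mg per litre of air, for 16 h per day over 4 days, with 7 days of abstinence between cycles, and before each cycle an injection of ethanol (1.6 g/kg) with pyrazole (1 mmol/kg). Ctrl mice were given air in the chambers and injections of saline with pyrazole, an inhibitor of alcohol dehydrogenase, so that every group carried pyrazole and none was untreated. Tissue was collected right at the end of the last session (0 h) or 8 h, 72 h or 7 d later, with 6 mice in each group of treatment and time except CIE at 7 d, which had 4. The tissue was a dissected block of many cell types, so fewer cells of a type and less RNA per cell cannot be told apart. Of 10 genes listed as marking BNST neurons 9 were measured, with mean log2 values from 8.27 (Pdyn) to 12.02 (Sst), all above the median over probesets of 6.79. Array medians lay between 6.78 and 6.83. Values are log2 intensities as deposited, and a difference is CIE minus Ctrl on that scale. A difference was called, and a gene is said to have risen or fallen, where limma gave an adjusted p of 0.01 or less over all probesets. The p-values measure the spread between mice left in the deposited values, which the authors had already adjusted for hybridization batch. That spread was pooled over the 8 groups, and the fit held no term for batch.

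Neurons load transmitter into vesicles, tether them at the active zone, and prime them through the assembly of SNARE proteins on vesicle and plasma membrane. Calcium binding to synaptotagmins then triggers fusion, and the membrane is taken back by endocytosis. Rab3 GTPases sit on the vesicle and guide it to the release site, synapsins hold vesicles in reserve, and most BNST neurons release GABA.

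The 250 bases before the annotated start of the 3 genes in which a CIE difference was called at some time are given here so that the genes can be located and their upstream sequence read. They are RefSeq sequences of GRCm38.p6, written 5′ to 3′ in the direction of transcription. They lie at chr4:108878820-108879069 on the plus strand for Rab3b, chr6:115134652-115134901 on the plus strand for Syn2 and chr13:110280207-110280456 on the minus strand for Rab3c. Syn2 had 2 such entries, of which the first is shown. Capitals mark the GC box, searched as GGGCGG on both strands and so also read as CCGCCC.
Rab3b: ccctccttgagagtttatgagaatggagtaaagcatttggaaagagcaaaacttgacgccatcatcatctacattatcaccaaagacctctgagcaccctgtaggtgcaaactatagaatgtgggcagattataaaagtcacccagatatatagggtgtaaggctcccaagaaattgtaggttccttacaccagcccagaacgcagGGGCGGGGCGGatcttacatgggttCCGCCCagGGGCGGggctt
Syn2: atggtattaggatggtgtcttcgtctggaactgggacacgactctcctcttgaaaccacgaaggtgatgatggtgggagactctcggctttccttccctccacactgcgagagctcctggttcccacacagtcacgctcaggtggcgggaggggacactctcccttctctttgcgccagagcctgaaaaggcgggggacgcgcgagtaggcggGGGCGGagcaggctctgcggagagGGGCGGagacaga
Rab3c: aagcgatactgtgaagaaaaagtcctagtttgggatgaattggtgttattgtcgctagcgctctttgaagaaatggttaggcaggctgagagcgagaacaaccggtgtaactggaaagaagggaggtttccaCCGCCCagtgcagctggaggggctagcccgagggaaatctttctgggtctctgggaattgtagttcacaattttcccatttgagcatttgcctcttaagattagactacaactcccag
Rab3b had 4 boxes, the first of which shares a base with the next, Syn2 had 2 and Rab3c had 1. Upstream entries were found for 33 of the 40 members. Of their 44 entries 25 (56.8%) held a GC box, against 10756 of 32851 entries (32.7%) of all genes. A match describes these letters and is not evidence of a bound site.

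At 72 h after the last session 2 of the 40 genes differed between CIE and Ctrl mice. Rab3b, a vesicle-bound Rab3 GTPase, fell in CIE mice, and Syn2, encoding synapsin II, which holds vesicles in the reserve pool, rose. These were 2 of 102 member probesets called, against 0.433% of all probesets, and 2 of 40 representatives, against 0.687% of all genes. The rise was 1 of 102 against 0.304% and the fall 1 of 102 against 0.129%. At 0 h 1 of 102 was called, against 2.4% of all probesets, a further probeset of Rab3c with a lower value in CIE mice (1.35% of all were called lower and 1.05% higher). By representatives limma called 0 of 40 at 0 h, against 3.09% of all genes, and 9 of 102 probesets had an unadjusted p under 0.05, against 16.5%. The F test over the 4 times called 3 of 102, against 2.84% of all, and these were the same 3 probesets. At 8 h limma called 0 of 102, against 0.557% of all, with 10 at an unadjusted p under 0.05 (10.5% of all), where 0.222% of all were called lower, 0.335% higher and 0.742% by representatives. At 7 d it called 0 of 102, against 0% of all, with 4 at an unadjusted p under 0.05 (4.94% of all).

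**Figure D1:**
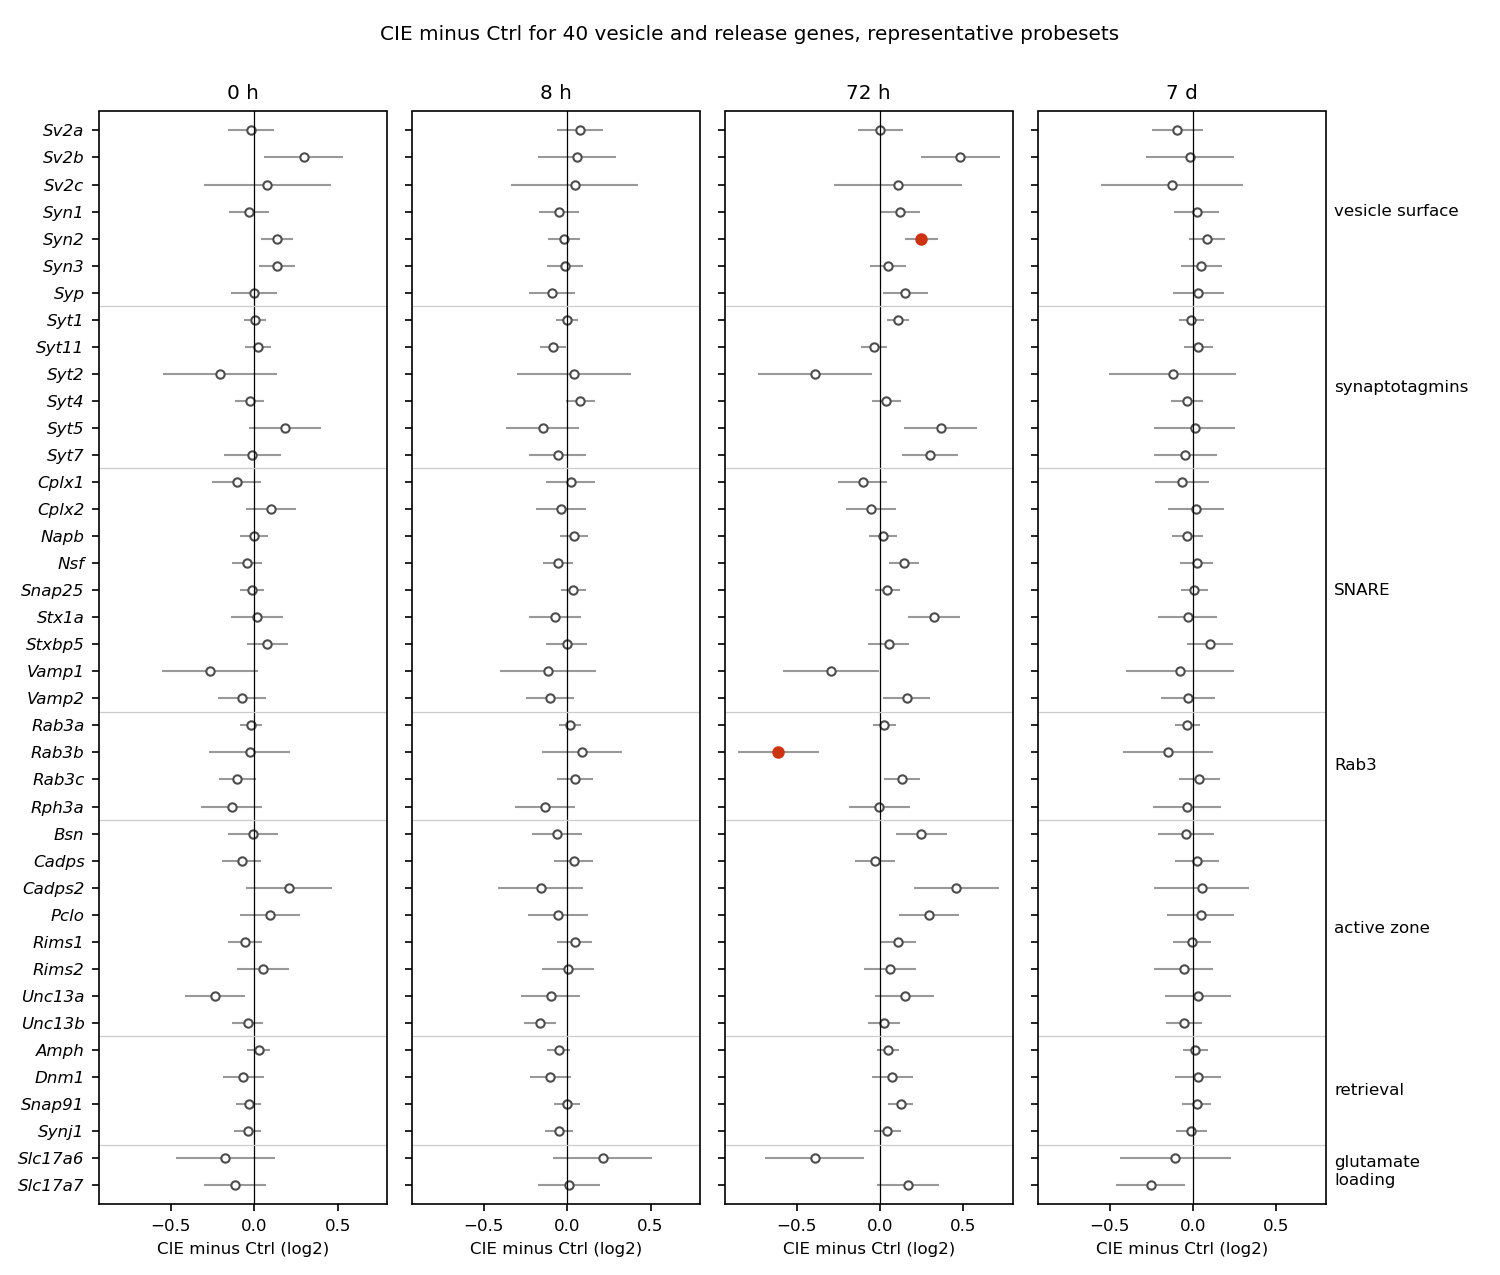
The difference CIE minus Ctrl (log2, horizontal axes) of the representative probeset of each of the 40 genes at 0 h, 8 h, 72 h and 7 d after the last session, grouped by role. Points are differences of group means, bars are 95% confidence intervals from limma, and filled points were called. Rab3b at -0.61 and Syn2 at 0.25 were called, both at 72 h, when 31 of the 40 points lay to the right of 0.

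The Rab3 genes held the call with the largest size. In Ctrl mice at 72 h Rab3b had log2 values of 9.24 (lowest), 9.53 (median) and 9.82 (highest). In CIE mice at 72 h the values were 8.61, 8.91 and 9.34. Of the 6 CIE mice 5 were lower than any Ctrl mouse, and the highest CIE mouse lay inside the Ctrl range. The difference was -0.61 (SE 0.12, adjusted p = 0.00495 by limma), which is a level 1.53-fold lower in CIE. At the other times the groups overlapped, with differences of -0.03 at 0 h, 0.09 at 8 h and -0.15 at 7 d. The Ctrl mice also moved: their Rab3b mean was 9.08 ± 0.19 (SD, n = 6) at 8 h and 9.55 ± 0.21 (SD, n = 6) at 72 h, a difference of 0.47 (SE 0.12) that did not pass (adjusted p = 0.0203 by limma). The CIE effect at 72 h differed from that at 8 h by -0.70 (SE 0.17, adjusted p = 0.0216), which did not pass either. Rab3b had only 1 probeset, so no second reading of it was at hand.

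The call of Rab3b depended on the arrays in the fit, while the difference stayed negative. It passed in 38 of 46 fits that each left out 1 array, with differences from -0.69 to -0.54 and adjusted p from 0.00207 to 0.0239. It was lost without Ctrl 72 h replicate 16, 44, 52 or 68 and without CIE 72 h replicate 3, 35, 63 or 71. With only the 12 arrays of 72 h in the fit the adjusted p was 0.0118. By limma with array weights it was 0.000125, and with 2 residual components as covariates 0.000763.

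Rab3c, a relative of Rab3b on the same vesicles, was called at 0 h on a further probeset, which is not its representative. That probeset was dim, with a mean log2 value of 6.85, near the median over probesets of 6.79, against 12.62 for the representative. Ctrl mice had values of 6.85 (lowest), 6.95 (median) and 7.29 (highest) at 0 h. CIE mice had 6.53, 6.60 and 6.66, so that the groups did not overlap. The difference was -0.40 (SE 0.07, adjusted p = 0.000152 by limma), or 1.32-fold lower, and it passed in 46 of 46 fits with 1 array left out. Groups that did not overlap, with CIE lower, made up 1 of 102 member probesets and 1.35% of all probesets at 0 h. At 8 h on this probeset CIE mice ranged from 6.42 to 6.74 and Ctrl mice from 6.76 to 7.02, again without overlap, 1 of 102 member probesets of that kind against 0.577% of all. The difference of -0.24 (SE 0.07) did not pass (adjusted p = 0.0723 by limma). By 72 h and 7 d the ranges overlapped, with differences of -0.05 and -0.12. Within CIE mice the probeset rose by 0.33 (SE 0.07, adjusted p = 0.000858) from 0 h to 72 h. For that pair of times 6 of 102 member probesets were called in CIE mice, near the 6.07% of all.

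The other probesets of Rab3c did not share the call at 0 h. The representative differed by -0.10 (SE 0.05, adjusted p = 0.353), with 4 of the 6 CIE mice below every Ctrl mouse. The remaining 3 probesets differed by -0.21, -0.15 and 0.003. Those at -0.21 and -0.15 varied widely between mice (residual SD 0.36 and 0.38, against a median of 0.135 over all probesets). The one at 0.003 had a mean log2 value of 2.98, near the lowest value on the arrays, 2.68. Between 0 h and 72 h in CIE mice the representative also rose, from a range of 12.36 to 12.69 to one of 12.65 to 12.89 (0.21, SE 0.05, adjusted p = 0.00662). The remaining Rab3 members were Rab3a, the abundant neuronal form, and Rph3a, encoding rabphilin, which binds Rab3 on the vesicle. The representative of Rab3a differed by -0.03 to 0.03 over the 4 times and that of Rph3a by -0.13 to -0.01, and none of these passed.

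**Figure D2:**
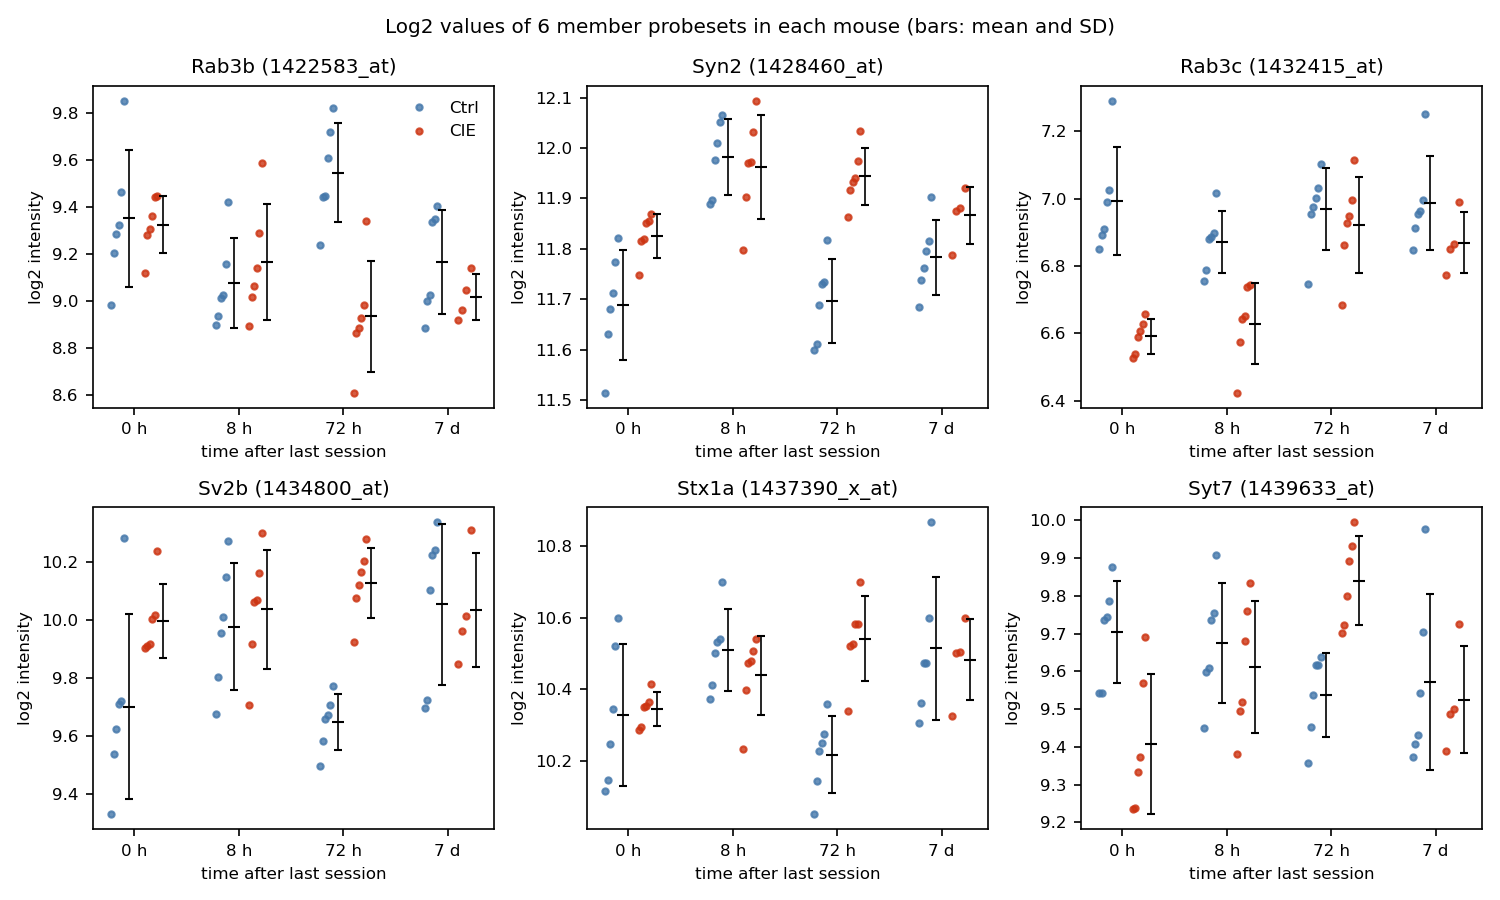
Log2 intensity (vertical axes, scaled for each panel) of 6 probesets in each mouse by time after the last session, with Ctrl in blue, CIE in red and the mean and SD beside each group. Rab3b at 72 h had 5 of 6 CIE mice below every Ctrl mouse, Syn2, Sv2b and the Syt7 probeset had no overlap at 72 h with CIE higher, and the further Rab3c probeset had every CIE mouse below at 0 h and 8 h.

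Among the proteins of the vesicle surface, Syn2 was called at 72 h. Ctrl mice at 72 h had values of 11.60 (lowest), 11.71 (median) and 11.82 (highest). CIE mice at 72 h had 11.86, 11.94 and 12.03, so that the groups did not overlap. The difference was 0.25 (SE 0.05, adjusted p = 0.00481 by limma), or 1.19-fold. At 0 h the difference was 0.14 (SE 0.05, adjusted p = 0.0954), with CIE mice from 11.75 to 11.87 and Ctrl mice from 11.51 to 11.82. At 8 h and 7 d the ranges overlapped, with differences of -0.02 and 0.08.

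Syn2 also changed with time in Ctrl mice. The representative rose by 0.29 (SE 0.05, adjusted p = 0.00072) from 0 h to 8 h in Ctrl mice and was lower at 72 h than at 8 h by a difference of -0.28 (SE 0.05, adjusted p = 0.000293). Ctrl mice at 8 h, from 11.89 to 12.07, thus overlapped the range of CIE mice at 72 h, with the highest Ctrl mouse above it. The call at 72 h passed in 38 of 46 fits with 1 array left out, with differences of 0.23 to 0.27 and adjusted p of 0.00222 to 0.0204, and was lost without the same 8 arrays as that of Rab3b. With only the 12 arrays of 72 h the adjusted p was 0.0124.

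The 5 further probesets of Syn2 were not called at 72 h. Their differences were 0.14, 0.13, 0.09, 0.004 and -0.16. The probeset at 0.09 was dim, with a mean log2 value of 4.93, and that at -0.16 varied widely between mice (residual SD 0.52). On the probeset with a difference of 0.14 CIE mice went from values of 9.68 to 9.88 at 0 h to 10.07 to 10.24 at 72 h, a rise of 0.35 (SE 0.06, adjusted p = 2.24e-05), and were 0.28 above 0 h at 7 d (SE 0.06, adjusted p = 0.00421). Such calls in CIE mice made up 6 of 102 member probesets at 72 h, against 6.07% of all, and 2 at 7 d, against 2.49%. On the pair with 0.004 and -0.16 the largest group means were those of Ctrl mice at 7 d.

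**Figure D3:**
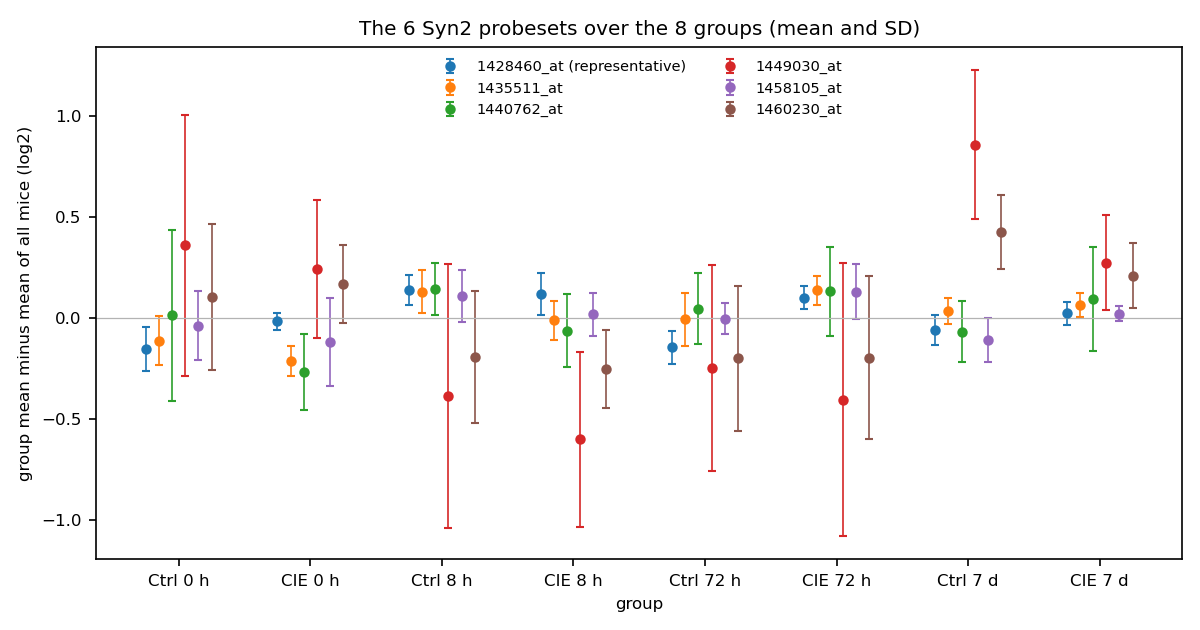
Group mean minus the mean of all mice (log2, vertical axis) of the 6 Syn2 probesets in the 8 groups of treatment and time, with bars for the SD between mice. The representative was high in both groups at 8 h and in CIE at 72 h, whereas the probeset with a difference of -0.16 at 72 h was highest in Ctrl mice at 7 d and had wider SDs.

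Sv2b, one of the SV2 glycoproteins of the vesicle membrane, had the largest positive difference of the 40 at 72 h. Ctrl mice had values of 9.49 (lowest), 9.66 (median) and 9.77 (highest), and CIE mice 9.92, 10.14 and 10.28. The lowest CIE mouse was higher than the highest Ctrl mouse. The difference of 0.48 (SE 0.12) did not pass (adjusted p = 0.0219 by limma). The other Sv2b probeset also had no overlap at 72 h, with a difference of 0.31 (SE 0.11, adjusted p = 0.158). At 0 h the representative differed by 0.30 (SE 0.12, adjusted p = 0.152), and the highest Ctrl value, 10.28, lay above all 6 CIE mice. With the fit limited to the 12 arrays of 72 h Sv2b was called (adjusted p = 0.00221), as it was without Ctrl 0 h replicate 48 (adjusted p = 0.00633), the array that held that highest Ctrl value. The 7 vesicle surface genes all had positive differences at 72 h, from 0.00 (Sv2a) to 0.48 (Sv2b), with 1 that rose and 6 that did not pass. Syp, encoding synaptophysin, differed by 0.15 (SE 0.07), and Syn1, encoding synapsin I, by 0.12 (SE 0.06). Syn3, another synapsin, differed by 0.14 at 0 h (SE 0.05, adjusted p = 0.165) and by 0.05 at 72 h, and Sv2c by 0.11 at 72 h.

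None of the 6 synaptotagmins was called at a single time, although limma with array weights called Syt5 (adjusted p = 0.00966) and Syt7 (adjusted p = 0.0038) at 72 h. Syt7, a slow calcium sensor, had a difference of 0.30 (SE 0.08, adjusted p = 0.0526) at 72 h, with Ctrl mice from 10.99 to 11.29 and CIE mice from 11.11 to 11.50. Syt5 had 0.36 (SE 0.11, adjusted p = 0.069), with Ctrl mice from 7.76 to 8.25 and CIE mice from 8.04 to 8.51. In both genes the lowest CIE mice lay inside the Ctrl range. Syt1, the main fast calcium sensor of the forebrain, differed by only 0.11 (SE 0.03, adjusted p = 0.0774), yet its CIE mice, from 13.06 to 13.15, did not overlap its Ctrl mice, from 12.96 to 13.06, the nearest pair being equal once rounded. Syt2, a fast sensor, had -0.39 (SE 0.17, adjusted p = 0.289). Syt4 and Syt11, family members that bind calcium weakly or not at all, differed by 0.04 and -0.04.

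The CIE effect changed between times for 1 further Syt7 probeset, singled out after its values were seen. At 0 h Ctrl mice had values of 9.54 (lowest), 9.74 (median) and 9.88 (highest), and CIE mice 9.24, 9.35 and 9.69. At 72 h Ctrl mice had 9.36, 9.58 and 9.64, and CIE mice 9.70, 9.85 and 10.00. CIE mice were thus mostly below Ctrl at 0 h, with overlap, and all above at 72 h. The differences were -0.30 at 0 h (adjusted p = 0.0478) and 0.30 at 72 h (adjusted p = 0.0743), and neither passed. The change between them was 0.60 (SE 0.13, adjusted p = 0.00494 by limma), 1 of 102 member probesets called for this pair of times, against 0.988% of all. The representative of Syt7 differed by -0.01 at 0 h, so the change is that of 1 probeset. The F test of the change of effect over all 4 times called 0 of 102, against 1.04% of all probesets.

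The 9 SNARE genes and their regulators had 6 positive and 3 negative differences at 72 h, and none passed. Stx1a, encoding the plasma membrane SNARE syntaxin 1A, came nearest. Ctrl mice had values of 10.05 (lowest), 10.24 (median) and 10.36 (highest), and CIE mice 10.34, 10.55 and 10.70, and 5 of the 6 CIE mice exceeded the whole Ctrl range. The difference was 0.32 (SE 0.08, adjusted p = 0.0199 by limma), and without Ctrl 0 h replicate 48 in the fit it was called (adjusted p = 0.00942). Nsf, the ATPase that takes spent SNARE complexes apart, differed by 0.14 (SE 0.04, adjusted p = 0.0879), and Vamp2, the main vesicle SNARE, by 0.16 (SE 0.07, adjusted p = 0.314). Vamp1, its relative in other neurons, had -0.29 (SE 0.14, adjusted p = 0.386) at 72 h and -0.26 at 0 h. Snap25, the other plasma membrane SNARE, differed by 0.04 at 72 h with a 95% confidence interval of -0.03 to 0.12. The complexins, which clamp and activate the complex, gave -0.10 (Cplx1) and -0.06 (Cplx2). Napb, the brain form of the NSF adaptor, gave 0.02, and Stxbp5, encoding tomosyn, which binds syntaxin, 0.05.

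In the active zone group, which tethers and primes vesicles, 7 of 8 genes had positive differences at 72 h and none passed. Cadps2, a priming factor mainly for dense-core vesicles, had Ctrl values of 10.47 (lowest), 10.86 (median) and 11.33 (highest), and CIE values of 11.17, 11.38 and 11.53. The Ctrl range was exceeded by 4 of the CIE mice. Its difference was 0.46 (SE 0.13, adjusted p = 0.048 by limma). The large scaffolds had smaller differences without overlap of the groups. Pclo (piccolo) had Ctrl mice from 10.62 to 10.88 and CIE mice from 11.04 to 11.17, a difference of 0.29 (SE 0.09, adjusted p = 0.0759). Bsn (bassoon) had Ctrl mice from 8.91 to 9.10 and CIE mice from 9.12 to 9.35, a difference of 0.25 (SE 0.07, adjusted p = 0.0749). With only the 12 arrays of 72 h in the fit Pclo was called (adjusted p = 0.00689). The priming factor Unc13a (Munc13-1) had 0.15 (SE 0.09, adjusted p = 0.536) and the tethering scaffold Rims1 0.11 (SE 0.05). Rims2, Unc13b and Cadps gave 0.06, 0.02 and -0.03.

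Unc13a moved with time in CIE mice. Its values were 8.29 (lowest), 8.47 (median) and 8.58 (highest) at 0 h and 8.75, 8.79 and 8.94 at 72 h, and at 7 d the 4 mice had 8.75, 8.86, 8.90 and 8.99. No CIE mouse at 0 h reached those of 72 h or 7 d, a gap whose share over all probesets was not counted. The rise to 72 h was 0.36 (SE 0.09, adjusted p = 0.00429). From 0 h to 72 h 6 of 102 member probesets were called in CIE mice, near the 6.07% of all. The rise to 7 d was 0.41 (SE 0.10, adjusted p = 0.00644), where 2 of 102 were called, against 2.49% of all. The CIE minus Ctrl difference of Unc13a at 0 h was -0.24 (SE 0.09, adjusted p = 0.124). Unc13b had the smallest p of the 40 at 8 h, with a difference of -0.16 (SE 0.05, adjusted p = 0.0865), Ctrl mice from 8.68 to 8.87 and CIE mice from 8.51 to 8.69.

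The 4 genes of vesicle retrieval had positive differences at 72 h, from 0.04 to 0.12, and none passed. They were Snap91 (the clathrin adaptor AP180) at 0.12 (SE 0.04, adjusted p = 0.0746), Dnm1 (dynamin 1, which cuts vesicles from the membrane) at 0.07, Amph (amphiphysin) at 0.05 and Synj1 (the lipid phosphatase synaptojanin 1) at 0.04. Within CIE mice Snap91 rose from a range of 12.23 to 12.39 at 0 h to 12.36 to 12.52 at 72 h (0.16, SE 0.04, adjusted p = 0.00317). It was among the 6 of 102 member probesets called for that pair of times, against 6.07% of all.

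The pair of vesicular glutamate transporters did not pass at any time. Slc17a6 (VGLUT2), found mainly in subcortical glutamate neurons, had Ctrl mice from 10.99 to 11.58 and CIE mice from 10.81 to 11.06 at 72 h. The groups overlapped, and the difference was -0.39 (SE 0.15, adjusted p = 0.185). Slc17a7 (VGLUT1), found mainly in cortical neurons, had a mean log2 value of 4.98, below the median over probesets. At 7 d its 4 CIE mice had 4.62, 4.88, 4.91 and 4.96 and its Ctrl mice ranged from 4.97 to 5.19. The groups did not overlap, but the difference of -0.25 (SE 0.10) did not pass (adjusted p = 0.896 by limma). Groups with CIE lower and no overlap made up 2 of 102 member probesets at 7 d, against 0.573% of all, the other being a further probeset of Rph3a.

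Across the 40 genes the differences at 72 h were small and mostly of 1 sign. The representative probeset was positive in 31 of 40 members, against 48.3% of all genes, with a median of 0.067 beside -0.0036 over all genes. Of the 102 member probesets 71 (69.6%) were positive, against 49.8% of all, with a median of 0.048 beside -0.0004. At an unadjusted p under 0.05 there were 30 of 102, against 12.6% of all, and at an adjusted p of 0.05 or less 5 of 102, against 1.71%. At that looser threshold there were 2 at 0 h, against 4.92%, and 0 at 8 h, against 1.26%. Groups with CIE higher and no overlap made up 8 of 102 at 72 h, against 1.66%, and those with CIE lower 0, against 1.24%. Higher without overlap there were 0 at 0 h, against 1.15%, 0 at 8 h, against 0.524%, and 0 at 7 d, against 0.544%. At 0 h 14 of 40 representatives were positive (50.4% of all genes), at 8 h 17 (46.1%) and at 7 d 18 (58.6%), with medians of -0.019, -0.017 and -0.011. Of the probesets 42 were positive at 0 h (48.9% of all), 48 at 8 h (49.1%) and 35 at 7 d (53.9%). These shares describe the list, whose members share the same mice, and carry no test. The list was also chosen with earlier results of these data known.

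Markers of cell types were measured in the same mice. Of all genes 0.687% were called at 72 h and 3.09% at 0 h. At 72 h limma called 3 of 5 cholinergic, 1 of 7 microglial, 1 of 7 oligodendrocyte, 1 of 8 astrocyte and 1 of 10 general neuronal markers. Each of these is a larger share than that of all genes. The mean deviation of the 40 genes ran from -0.031 to -0.006 in Ctrl mice at 72 h and from 0.018 to 0.077 in CIE mice, without overlap, whereas at 0 h, 8 h and 7 d the ranges overlapped. At 72 h 7 of 7 microglial markers had negative differences and C1qb fell (-0.51, adjusted p = 0.00987), with a mean deviation of 0.19 to 0.32 in Ctrl and -0.32 to 0.04 in CIE mice. Of the oligodendrocyte markers 7 of 7 were negative and Opalin fell (-0.39, adjusted p = 0.00901), with 0.09 to 0.17 in Ctrl and -0.19 to -0.0045 in CIE mice. Of the astrocyte markers 6 of 8 were negative and S100b fell (-0.25, adjusted p = 0.00789), with 0.09 to 0.20 in Ctrl and -0.18 to 0.06 in CIE mice.

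Neuronal markers differed in sign between lists. Some lists share a gene with the members: Snap25 (general neuronal), Slc17a7 (cortical glutamatergic) and Slc17a6 (thalamic and hypothalamic glutamatergic). GABAergic markers were positive in 7 of 7, with 0 called and mean deviations of -0.32 to -0.04 in Ctrl and 0.11 to 0.23 in CIE mice at 72 h. The 9 measured BNST markers were positive in 8, with 0 called and mean deviations of -0.39 to -0.06 in Ctrl and 0.01 to 0.28 in CIE mice. Cholinergic markers were negative in 5 of 5, with 0.18 to 0.56 in Ctrl and -0.47 to 0.08 in CIE mice, and Gbx1 (-0.91), Lhx8 (-0.82) and the choline transporter Slc5a7 (-0.59) fell. Among 10 general neuronal markers 7 were positive and Map2 rose by 0.17 (adjusted p = 0.00952). Mean deviations of that list overlapped, with -0.062 to 0.009 in Ctrl and -0.005 to 0.066 in CIE mice. Striatal medium spiny markers were negative in 7 of 7 at 72 h (median -0.21) and positive in 7 of 7 at 0 h (median 0.33), with 0 called at either time. Their mean deviations overlapped widely, with -0.23 to 0.33 in Ctrl and -0.40 to 0.12 in CIE mice at 72 h. At 0 h they were -0.64 to 0.18 in Ctrl and -0.32 to 0.68 in CIE mice. Thalamic and hypothalamic glutamatergic markers were positive in 4 of 8 at 72 h with a mean difference of 0.30 and 0 called, and mean deviations of -0.19 to 0.02 in Ctrl and -0.11 to 0.51 in CIE mice. In that list Prkcd differed by 1.41 (SE 0.34, adjusted p = 0.021) and Lef1 by 0.65 (SE 0.17, adjusted p = 0.0399). Which cells of the dissected block gave the Prkcd signal was not measured, so it need not come from glutamatergic neurons. The lowest of the list was Slc17a6 at -0.39, so the mean of the list is not a shift shared by all its genes. Cortical glutamatergic markers were positive in 4 of 6 at 72 h, with 0 called. At 0 h 8 of 8 endothelial and mural markers were negative and 3 fell, with mean deviations of -0.02 to 0.24 in Ctrl and -0.29 to -0.11 in CIE mice, the mice in which the further Rab3c probeset was lower. Of the choroid plexus and ependyma markers 6 of 7 were positive at 0 h and 1 rose, with -0.18 to 0.04 in Ctrl and -0.16 to 0.28 in CIE mice. The part that these marker differences have in the member differences was not tested.

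**Figure D4:**
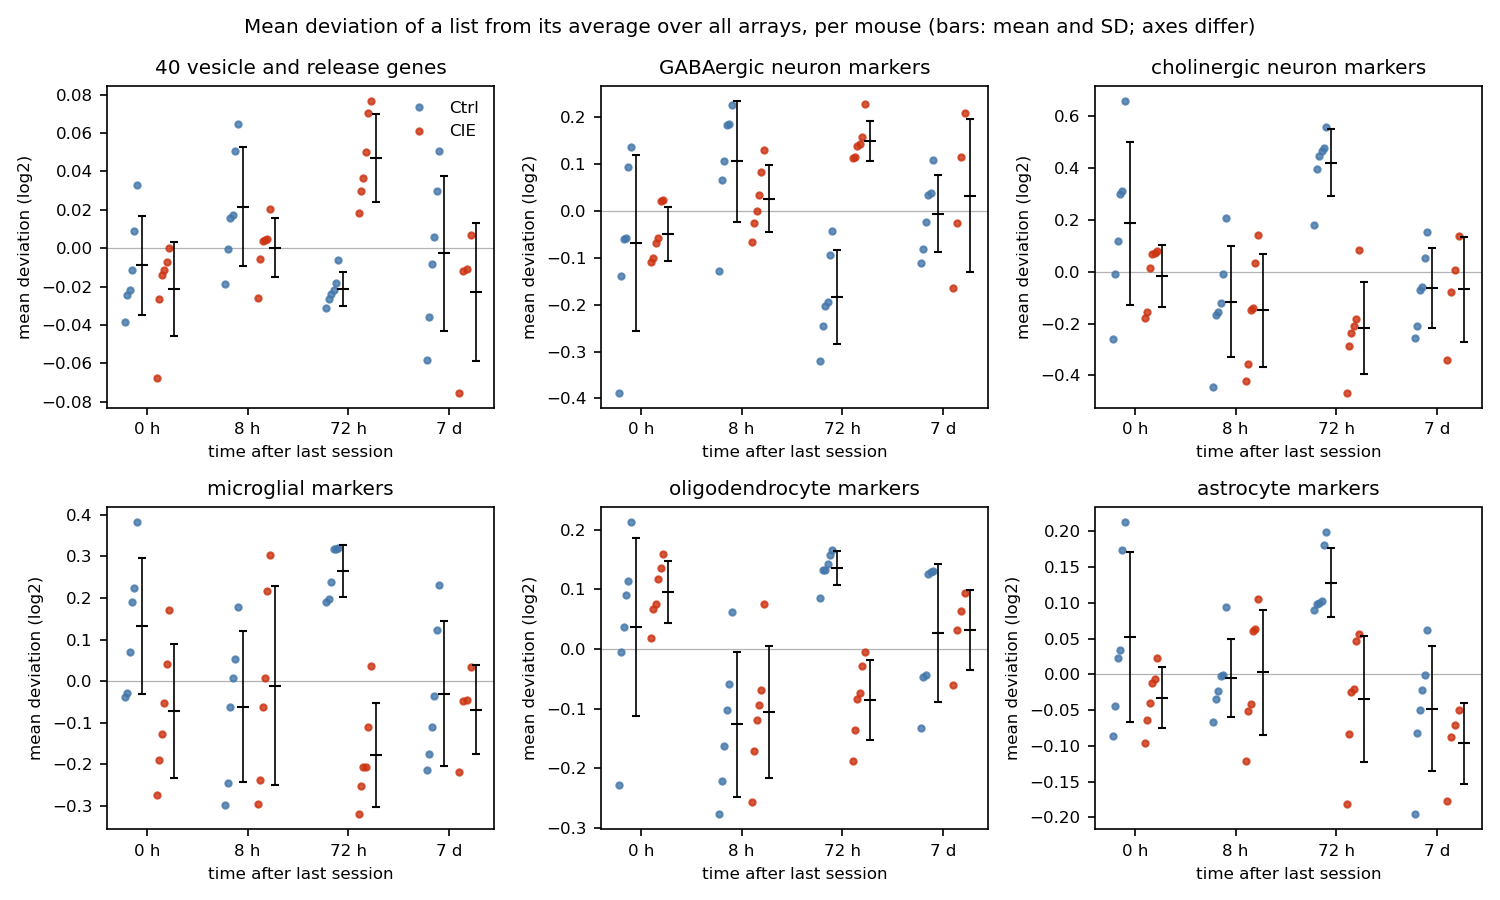
Mean deviation of each list from its average over all arrays (log2, vertical axes, scaled for each panel) in each mouse by time, with Ctrl in blue, CIE in red and the mean and SD beside each group. At 72 h the 40 vesicle and release genes and the GABAergic markers lay higher in every CIE mouse than in any Ctrl mouse, and the microglial and oligodendrocyte markers lower.

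Members were also called for time after the last session. The Ctrl time course (F test over the 4 times) called 14 of 102, against 10.9% of all probesets, and the CIE time course 4 of 102, against 7.76%. Between pairs of times in Ctrl mice 1 of 102 was called from 0 h to 8 h (0.713% of all), 2 from 8 h to 72 h (1.1%), 9 from 72 h to 7 d (5.16%) and 0 from 0 h to 7 d (2.23%). In CIE mice 6 were called from 0 h to 72 h (6.07%), 2 from 0 h to 7 d (2.49%) and 1 from 8 h to 72 h (1.37%), whereas 0 were called from 0 h to 8 h (3.24%) and from 8 h to 7 d (2.5%). Representatives called in Ctrl mice were those of Syn2, Stxbp5, Syt5, Cadps2 and Stx1a. Stxbp5 fell by 0.31 (SE 0.06, adjusted p = 0.000284) from 8 h to 7 d, with ranges of 10.16 to 10.37 and 9.80 to 10.23. From 72 h to 7 d Syt5 rose by 0.50 (SE 0.11, adjusted p = 0.00263). Stx1a rose over the same interval by 0.30 (SE 0.08, adjusted p = 0.00918). Cadps2 fell by 0.61 (SE 0.13, adjusted p = 0.00357) from 8 h to 72 h. Stx1a, Cadps2, Syn2 and Syt5 in Ctrl mice thus had their lowest or near-lowest group means at 72 h. Their CIE minus Ctrl differences were largest at that time, but each such difference contains the Ctrl mean, so the match is partly built in. Stxbp5, also called in Ctrl mice, had its largest positive difference at 7 d (0.10).

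The other probesets called in Ctrl mice belonged largely to a set with wide spread between mice. From 8 h to 7 d 16 of 102 member probesets were called in Ctrl mice, against 12% of all, among them a further Syt1 probeset with a rise of 1.43 (SE 0.25, adjusted p = 7.07e-05). The Ctrl mice had 7.38 to 8.29 at 8 h and 8.52 to 10.09 at 7 d on this probeset, while the Syt1 representative stayed between 12.96 and 13.13 in the same mice. A residual SD above 0.3 was found in 11 further probesets of 8 genes (Slc17a6, Syt1, Napb, Rab3c, Snap25, Syn2, Syt11 and Rph3a), against a median of 0.135 over all probesets. These 11 went up and down together between mice of a group, with correlations between them of 0.46 to 0.99 (median 0.71) over the same 46 arrays. Over all 62 further probesets the median correlation with the representative of the same gene was 0.08, and 23 were negative. Of the 30 genes with more than 1 probeset, 12 had probesets that disagreed in sign at 72 h. Some further probesets were dim, such as a Rab3c probeset (mean log2 value 2.98), a Napb probeset (3.92) and a Synj1 probeset (3.96). The platform table does not say which transcript form a probeset reads.

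Beyond the 40 genes, 56 of 62 other listed genes of vesicle release were measured. At 72 h 2 rose, 2 fell and 52 did not pass, where 0.687% of all genes were called. Ppfia2 and Ppfia3, encoding liprin-alpha scaffolds of the active zone, both rose. The difference of Ppfia2 was 0.26 (SE 0.05, adjusted p = 0.00484). That of Ppfia3 was 0.20 (SE 0.04, adjusted p = 0.00505). Ppfia2 ranged from 8.97 to 9.23 in Ctrl and from 9.25 to 9.39 in CIE mice, without overlap. Unc13c, a relative of Unc13a, fell by 0.54 (SE 0.09, adjusted p = 0.00147), from 12.32 to 12.76 in Ctrl to 11.96 to 12.21 in CIE mice. The fourth was Slc5a7, which is also counted above among the cholinergic markers. Positive differences were found in 39 of the 56 at 72 h, against 48.3% of all genes, with a median of 0.07. At 0 h 1 of 56 was called, a smaller share than the 3.09% of all genes, Sh3gl3 (endophilin A3, an endocytic adaptor), which rose by 0.23 (SE 0.05, adjusted p = 0.00424), and at 8 h and 7 d limma called 0 of 56, the smallest adjusted p being 0.155 and 0.754.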

How the data were processed

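RNA of single BNST dissections was hybridized to Affymetrix mouse arrays. The deposited values are log2 probeset intensities: the authors corrected background by RMA and quantile normalized within hybridization batch, quantile normalized all arrays again and adjusted for batch with ComBat. Versions of these tools, and which array was in which batch, are not given in the sources used here; within-batch values could therefore not be computed. Repeated quantile normalization hides a shift shared by most genes, and the 46 arrays (0 pairs identical) set the precision.

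Groups came from the treatment and time in the labels. All arrays entered 1 linear model with a mean for each of the 8 groups (limma 3.58.1 in R 4.3.3, moderated by eBayes, with 3.94 prior beside 38 residual degrees of freedom), tested two-sided with Benjamini-Hochberg adjustment over 45037 probesets within each comparison. F tests covered the 4 differences, their change and each time course. The code was tested on simulated data. Gene symbols came from the platform table: 932 probesets with several symbols and 9160 with none were tested but not named. Named were called members, the 10 smallest p at each time and over the Ctrl course, and a fixed set (Syn1, Syp, Syt1, Snap25, Vamp2, Slc17a6, Slc17a7). A further Syt7 probeset was singled out after its values were seen. Members and lists were chosen with earlier results of these data known. Alternatives covered samples in the fit, array weights, centring, variance prior, dim probesets, threshold, residual components, probesets and single arrays left out.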

Additional observations from a re-analysis of the deposited data

Results flagged for a closer look

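In 42 probesets of the named genes, 23 of 336 groups had 1 mouse far from the others relative to the range of its group, where chance gives about 1 in 20. The values follow by mouse, each with the gene and its log2 level.

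CIE 0 h replicate 67 was low for Cadps (11.76) and Stxbp5 (9.92) and high for Sv2b (10.24). Ctrl 0 h replicate 48 was low for Cplx1 (12.5) and Stxbp5 (9.94) and high for Vamp2 (11.93). CIE 8 h replicate 21 was high for Dnm1 (12.49) and Syn1 (10.05) and low for Sv2c (5.64). Ctrl 72 h replicate 34 was high for Nsf (12.87), Syn1 (9.86) and the Syt7 representative (11.29). CIE 72 h replicate 3 was low for Cadps (11.84) and high for Pclo (11.17), and CIE 72 h replicate 29 was low for the Syt7 representative (11.11). Ctrl 8 h replicate 58 was low for Synj1 (12.34) and Syp (10.02), and CIE 8 h replicate 15 was high for Amph (11.64). At 7 d CIE replicate 65 was high for Snap25 (13.44) and Vamp2 (11.69), replicate 27 was low for Sv2a (11.54), replicate 45 was low for Syt11 (12.68), and Ctrl replicate 80 was high for the further Rab3c probeset called at 0 h (7.25).

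The CIE effect on the further Syt7 probeset differed between 72 h and 0 h by 0.60, tested by the change of effect in limma.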

How the results depend on the processing

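The counts of member probesets called depended most on the threshold and on how the spread was modelled. At an adjusted p of 0.05 or less 2 were called at 0 h, against 4.92% of all, and 5 at 72 h, against 1.71%. The counts at that threshold were 7 for the F test over the 4 times, 3 for the change of effect, 32 for the Ctrl time course and 10 for the CIE time course. With array weights they were 10 at 72 h, 8 for the F test, 3 for the change of effect, 26 for the Ctrl and 14 for the CIE course. With 2 residual components as covariates they were 2 at 0 h, 1 at 8 h, 8 at 72 h, 2 at 7 d, 11 for the F test, 3 for the change of effect, 36 for the Ctrl and 17 for the CIE course. With only the groups of each test the Ctrl course gave 6, and at 72 h the count stayed at 2, but these were Sv2b and Pclo and 0 were shared with Rab3b and Syn2. Counted as genes by their representative probesets there were 0 at 0 h, 5 for the Ctrl and 1 for the CIE course. Alignment at the median, an intensity trend with a robust prior, a filter on dim probesets and probesets with several symbols left the counts within 1.5 times. The share of all probesets called was not computed for array weights, residual components, the groups of each test or single arrays left out. Nor was it computed for the F tests and time courses at the looser threshold. Those counts therefore do not show whether members were called more often than other probesets. The cause of these moves was not tested.

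With 1 array left out the counts ranged from 1 to 1 at 0 h, 0 to 0 at 8 h, 0 to 4 at 72 h, 0 to 0 at 7 d, 2 to 4 for the F test, 0 to 0 for the change of effect, 8 to 20 for the Ctrl and 2 to 5 for the CIE course. The 72 h count was 4 without Ctrl 0 h replicate 48 and 0 without any of the 8 arrays of 72 h named for Rab3b. On other probesets of the gene Rab3c at 0 h turned to 0.0028 and Syn2 at 72 h to -0.16. The first of these probesets was dim (mean log2 value 2.98) and the other had a residual SD of 0.52. Of 165 differences of a named probeset at a time that were not called, 8 were called under another setting of the fit. They were those of Sv2b, Stx1a, Syt5, Syt7, Cadps2, Pclo and Bsn at 72 h and Unc13a at 0 h. No paired analysis was possible because each replicate number belongs to a single mouse and the groups compared share no number.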
